A study of Mus musculus with 79 samples.

Results

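Nicotinamide nucleotide transhydrogenase, encoded by Nnt on mouse chromosome 13, was followed across the BXD strains in quadriceps muscle. Its members were all probesets whose symbol in the expression table was Nnt, and 2 of the 35556 probesets met this rule, for 1 of the 22335 gene symbols on the array. Each BXD strain is homozygous at nearly every locus for the copy of one of 2 founders, C57BL/6J (B6) or DBA/2J (D2), and both founders were measured beside the BXD strains. All animals were males killed at 29 weeks after an overnight fast. They were fed a chow diet (CD) throughout or a high fat diet (HFD) from 8 weeks of age. An array held RNA pooled from about 5 animals of 1 strain on 1 diet, so differences between animals of a strain were not measured. The 42 CD and 37 HFD arrays covered 42 strains, and 37 strains had both. Sample titles name 2 batches, batch 1 (18 CD and 17 HFD arrays) and batch 2 (24 CD and 20 HFD arrays).

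NNT sits in the inner mitochondrial membrane, where it uses the proton gradient to pass a hydride from NADH to NADP+. The NADPH it makes in the matrix feeds the glutathione and thioredoxin systems that remove peroxides, and the gene is known for its high level in heart and other tissues rich in mitochondria. B6 mice are known to carry a deletion of several exons of Nnt and to lack a working protein, whereas D2 mice carry the intact gene, so the BXD strains divide between a B6 and a D2 copy. The labels did not give the copy each strain carries, and genotypes were not used here. All values below are scores, the deposited scale, set so that every array averages 8.0 with an SD of 2.0. They were treated as logarithms, but neither a log scale nor its base is stated, so differences are given in score units and not as folds.

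The tissue label was checked first. The 9 skeletal muscle markers, among them the actin Acta1 and the calcium pump Atp2a1, had mean scores of 14.03 to 15.19. The average of the list lay between 14.55 and 14.87 on every HFD array and between 14.59 and 14.82 on every CD array. The 7 slow fibre markers varied far more, their average running from 8.32 to 11.18 over all arrays. Averages of the 8 adipocyte markers ran from 9.57 to 11.51. Strain BXD63 stood apart from the rest in its response to diet. Its HFD minus CD profile over all probesets had r = -0.28 with the mean profile of the other strains, whereas each of the other strains had r between 0.14 and 0.48, so the main results on strains are also given without it.

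The Nnt probesets gave different pictures of the strains. Probeset 10412394 had a mean score of 10.60 and spread over 2.402 units on CD and 2.335 units on HFD. Probeset 10407356 had a mean of 9.67 and spread over 0.622 units on CD and 0.708 units on HFD. Over the strain means, each the average of the CD and HFD arrays of a strain, the pair had r = 0.25 (37 strains, sharing the same arrays). It was -0.02 over the 42 CD arrays and 0.27 over the 37 HFD arrays. Among the 20 probesets nearest in number to the first, 13 are placed by RefSeq on chromosome 13, 11 of them on the minus and 2 on the plus strand. For the second it is 14, with 7 on the minus strand, 5 on the plus strand and 2 of unlisted strand. Which exons the probes cover is not analysed here, so probes over missing exons, sequence variants under probes and a lower transcript level cannot be told apart. The variable probeset 10412394 is called Nnt below, and the flat one is named where it is used.

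**Figure D1:**
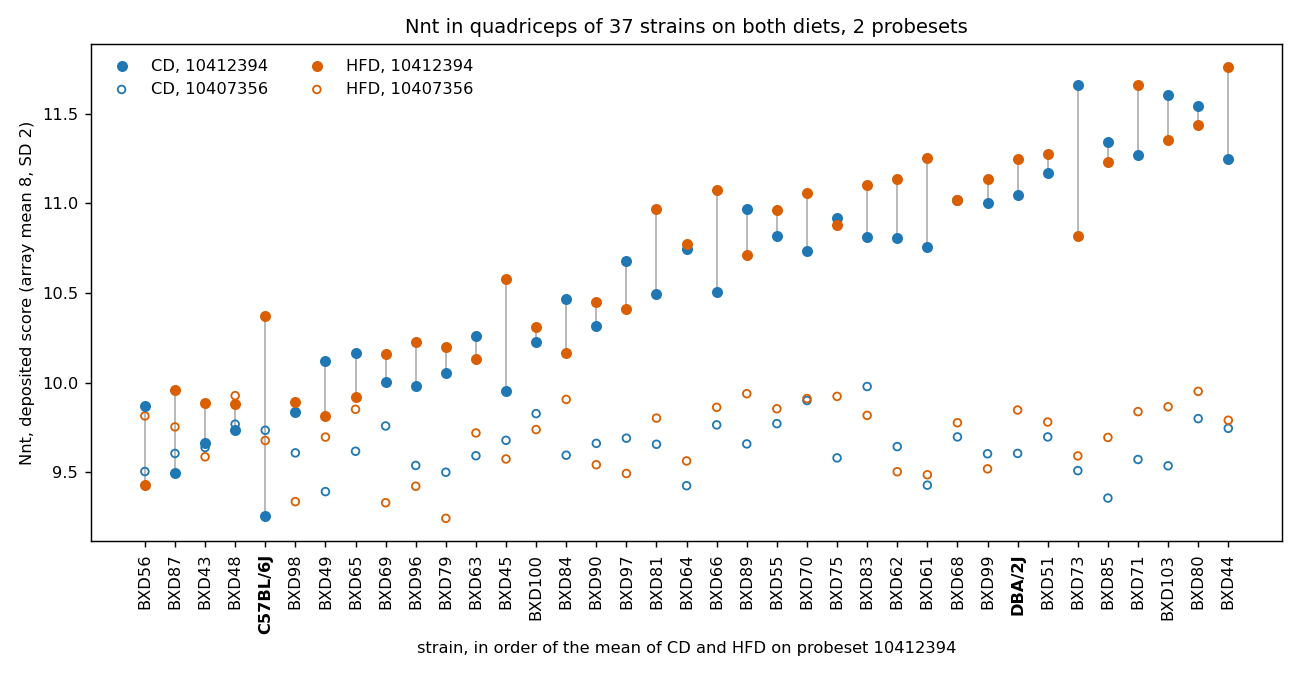
Score of Nnt (vertical axis, deposited score) in the 37 strains with both diets, in order of the mean of CD (blue) and HFD (orange) on probeset 10412394, whose values are the filled points joined by a grey line. Filled points climb from BXD56 at a strain mean of 9.65 to BXD44 at 11.50, with B6 near the left end, while the open points of probeset 10407356 stay between 9.24 and 9.98.

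Nnt was low in B6 and high in D2. On CD, B6 had a score of 9.256, the lowest of the 42 arrays, and D2 had 11.047. On HFD, B6 had 10.370 and D2 11.249. B6 lay below D2 on both diets, with B6 minus D2 at -1.791 on CD and -0.879 on HFD, but the B6 arrays were themselves 1.114 apart, the widest difference between diets of any strain. In limma with a coefficient per strain plus diet and batch, the B6 minus D2 difference was -1.34 (SE 0.24, 1 array per diet for each parent, adjusted p = 0.000552 over all probesets). This contrast called 1.26% of all probesets. The B6 CD array carried much of it: without that array the difference was -0.81 and did not pass (adjusted p = 0.228). That array also stood at or near the low end for markers of some other cells. Its endothelial average, 9.6, was the lowest of the 42 CD arrays, and its slow fibre average of 8.62 and Schwann cell average of 9.09 each ranked 5 from the bottom. The B6 HFD array had 10.26, 10.44 and 9.38 for these lists, and the D2 arrays had 10.29 and 10.33, 10.13 and 9.3, and 9.3 and 9.35 on CD and HFD. The part of these markers in the parental difference was not tested. In pooled whole muscle, less RNA per cell and fewer cells that hold it cannot be told apart. With the 4 parental arrays alone the value was -1.34 with an adjusted p of 0.359. The flat probeset had scores of 9.735 and 9.678 in B6 and 9.606 and 9.848 in D2, a difference of -0.02 (adjusted p = 1.0).

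The other strains filled the range between and beyond the parents. On CD the 42 scores had a lowest value of 9.256 in B6, a median of 10.59 and a highest value of 11.658 in BXD73 (mean 10.55 ± 0.62, SD). On HFD the 37 scores ran from 9.428 in BXD56 through a median of 10.771 to 11.763 in BXD44 (mean 10.67 ± 0.59, SD). B6 ranked 1 of 42 from the bottom on CD and 14 of 37 on HFD, and D2 ranked 34 and 31. By strain mean, 4 strains lay below B6 (9.813): BXD56 at 9.650, BXD87 at 9.728, BXD43 at 9.775 and BXD48 at 9.809. Above D2 (11.148) came BXD51 at 11.222, BXD73 at 11.239, BXD85 at 11.288, BXD71 at 11.465, BXD103 at 11.478, BXD80 at 11.492 and BXD44 at 11.504. The strain means had an SD of 0.578 (0.582 without BXD63). The SD within a strain, from its CD and HFD arrays, was 0.253 (0.255 without BXD63), which gives a strain mean an SD of 0.179. Of the 36 steps between neighbouring strains in this order, 35 were smaller than that, so a strain cannot be ranked against its nearest neighbours.

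The strains did not fall into separate clusters by Nnt alone. A mixture of 2 normal components was taken to describe clusters where it lowered the BIC, a measure of fit penalised for added terms, by at least 10 and where Ashman's D, the distance between components in units of their spread, exceeded 2. The BIC of 1 component minus that of 2 was -7.47 on CD and -2.81 on HFD, so a second component raised it, and 1.39 for the strain means (1.38 without BXD63), short of the gain of 10. Component means lay at 10.03 and 11.02 on CD, at 10.11 and 11.13 on HFD and at 10.03 and 11.06 for the strain means. Ashman's D was 2.82, 3.54 and 4.0 in the same order. The widest gap on CD set B6 alone apart from the other 41 strains, and on HFD it set BXD56 alone apart from the other 36. Among strain means the widest gap, 0.189 between BXD97 at 10.544 and BXD81 at 10.734, left 17 strains below and 20 above. With the midpoint of the parental scores (10.48) as a line, 15 of 37 strains lay below it on both diets and 20 above it on both. The 2 that crossed were BXD45, at 9.953 on CD and 10.577 on HFD, and BXD97, at 10.677 and 10.411. The arrays of BXD45 came from different batches.

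**Figure D2:**
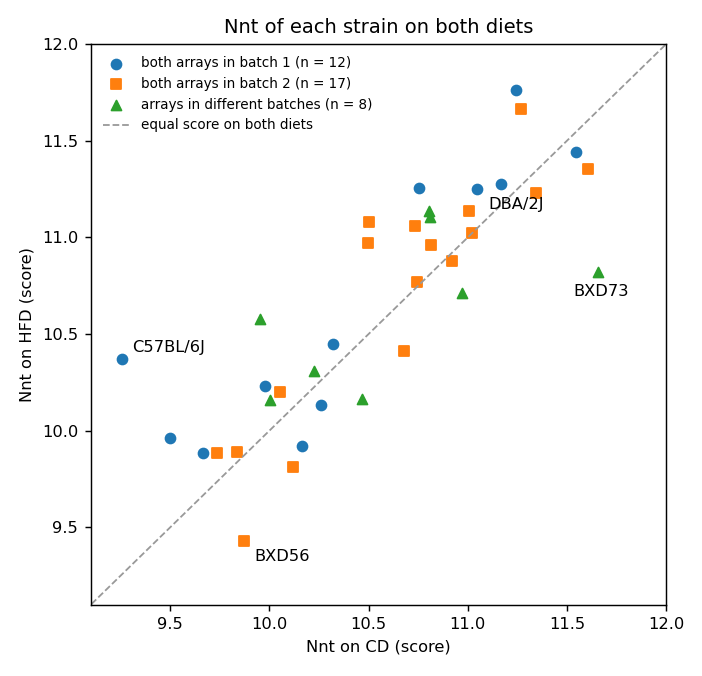
Nnt score on HFD (vertical) against Nnt score on CD (horizontal) for the 37 strains, 1 point per strain, with the batches of its arrays as marker shape and a dashed line of equal scores. Most points follow the line (r = 0.826 with batch means left in), and B6, 1.114 above it, and BXD73, 0.838 below it, lie farthest off.

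A strain's Nnt score on CD was a close guide to its score on HFD. After the batch mean was removed within each diet, Pearson's r between diets was 0.824 and Spearman's rho 0.844 over the 37 strains (two-sided permutation test, p = 1e-05 for each, the smallest that 100000 draws can give). Leaving out B6 and BXD87, whose CD scores lay farthest from the median, gave 0.845 (n = 35), and leaving out BXD63 gave 0.825 (n = 36). Where both arrays of a strain came from batch 1 (n = 12), r was 0.871 (permutation p = 0.00044). For batch 2 (n = 17) it was 0.895 (permutation p = 2e-05). Strains split between the batches (n = 8) had r = 0.562, which did not pass (permutation p = 0.145). Of all 35556 probesets, 0.757% had a cross-diet r at or above that of Nnt, and their median was 0.141. The flat probeset had r = 0.316 (permutation p = 0.0568), a correlation that 22.7% of probesets reached. Adjusted over both probesets by Benjamini-Hochberg, the permutation p-values were 2e-05 and 0.0568.

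No difference in Nnt between diets passed the test. The HFD minus CD difference was 0.12 (SE 0.14, 95% confidence interval -0.15 to 0.39, limma with batch, 42 CD and 37 HFD arrays, adjusted p = 0.507). The same test called 18.9% of all probesets as higher and 19.3% as lower on HFD. Within strains, Nnt was higher on HFD in 25 and lower in 12 of 37, and the differences had a median of 0.129 and an SD of 0.357. In 5 strains they exceeded 0.5 units: B6 rose from 9.256 to 10.370, BXD45 from 9.953 to 10.577, BXD66 from 10.504 to 11.077 and BXD44 from 11.245 to 11.763, while BXD73 went from 11.658 to 10.820. These are single arrays with no replicate of their own. In BXD45 and BXD73 the CD and HFD arrays came from different batches, so diet and batch cannot be told apart there. Between the same B6 arrays the slow fibre average was 1.82 and the endothelial average 0.66 higher on HFD, each the widest increase of the 37 strains, and their part in the B6 difference in Nnt was not tested. With strain as a block the difference was 0.10 (SE 0.06, adjusted p = 0.157), and without B6 it was 0.07 (adjusted p = 0.272). Without BXD63 the difference with batch was 0.13 (adjusted p = 0.484). In batch 1 alone it was 0.18 and in batch 2 alone 0.07, neither of which passed. The flat probeset differed by 0.05 (adjusted p = 0.267).

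Few probesets followed Nnt across strains, and the 3 that followed it best moved the opposite way. Of these, RefSeq places 2 near Nnt on chromosome 13, and the place of the other is known here only from its probeset number. The fit used 1 value per strain, the mean of both diets, and adjusted for the number of batch 2 arrays. It called 7 of the other 35554 probesets (0.0197%), 2 in the same direction as Nnt and 5 in the opposite one. At an unadjusted p under 0.05 there were 4022, or 11.3% of all probesets. Without BXD63 it called 8, these 7 among them. The 3 strongest were C5orf34, an uncharacterised reading frame, Zfp131, a zinc finger protein, and Gm7120, which RefSeq now names Tmem267, a predicted membrane protein. C5orf34 had r = -0.88 with Nnt over the 37 strain means, and changed by -0.81 per unit of Nnt (SE 0.07, limma adjusted p = 1.08e-08). Zfp131 had r = -0.85 and a slope of -0.64 (SE 0.07, limma adjusted p = 1.49e-07). Gm7120 had r = -0.72 and a slope of -0.53 (SE 0.09, limma adjusted p = 0.00339). C5orf34 and Zfp131 passed in all 13 settings run, with each diet alone and across diets among them. Gm7120 passed in 12, all but CD values set against Nnt on the HFD arrays.

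Genes on either side of Nnt did not follow it together. The RefSeq order of measured genes on chromosome 13 has 787 before Nnt and 9 after it, and it is used here for order alone. The closest on one side, Fgf10, a growth factor, had r = -0.22, and the closest on the other, Paip1, a partner of the poly(A)-binding protein in translation, had r = 0.00. Next after Paip1 came 3110070M22Rik at r = -0.03. Gm7120 was the third and Zfp131 the seventh measured gene after Nnt. Between them lay Ccl28, a chemokine, at r = -0.34, Hmgcs1, an enzyme of cholesterol synthesis, at r = 0.33, and E130304F04Rik at r = 0.39, none of which passed. Of the 10 genes before Nnt, r ran from -0.33 for Mrps30, a mitochondrial ribosomal protein, to 0.38 for Parp8, and none passed. C5orf34 has no entry in the RefSeq table, but its probeset is numbered between those of Paip1 and Gm7120. Among the 19 genes within 10 steps of Nnt the median size of r was 0.218, beside 0.156 for the 40 genes at 11 to 50 steps and 0.145 for all probesets.

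**Figure D3:**
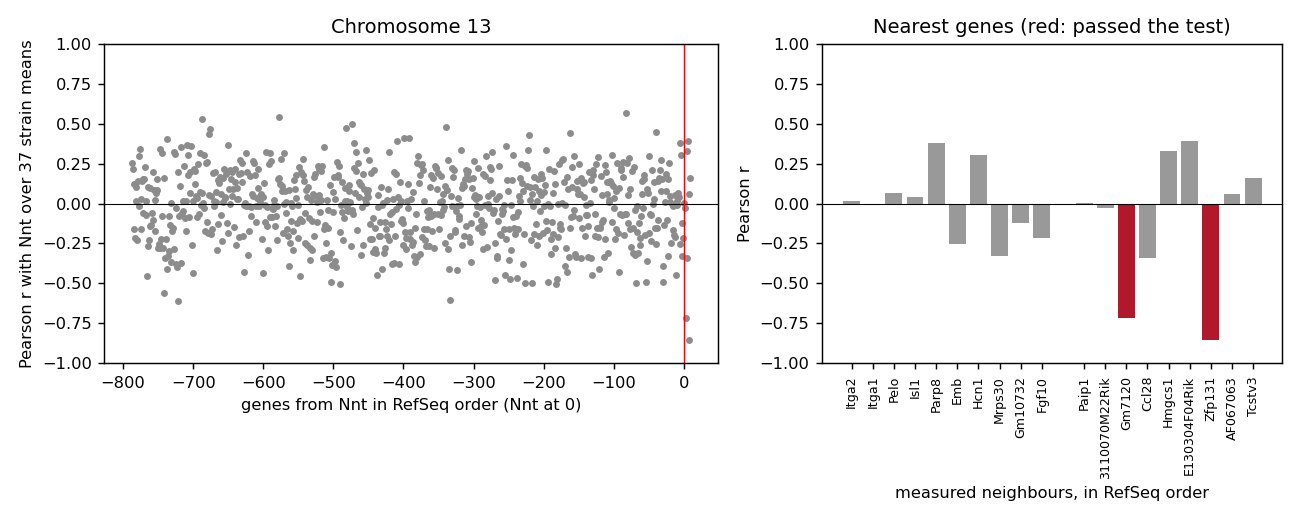
Pearson r with Nnt over 37 strain means (vertical axis) for the measured genes of chromosome 13 by their steps from Nnt in RefSeq order (left, red line at Nnt), and for the nearest genes as bars (right, red where the limma test passed). Gm7120 at -0.72 and Zfp131 at -0.85 fall outside the cloud of their neighbours.

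These 3 genes also differed between the parents, in the opposite direction to Nnt. C5orf34 had scores of 8.880 on CD and 8.710 on HFD in B6, and of 8.048 and 7.715 in D2. The B6 minus D2 difference was 0.91 (SE 0.15, limma adjusted p = 0.000149). Gm7120 scored 9.958 and 9.715 in B6 and 8.578 and 8.526 in D2, a difference of 1.28 (SE 0.17, limma adjusted p = 3.44e-06). Zfp131 scored 9.560 and 9.428 in B6 and 9.000 and 8.615 in D2, a difference of 0.69 (SE 0.14, limma adjusted p = 0.00446). In each case both B6 arrays lay above both D2 arrays. The parents are 2 of the 37 strains in the fit that ranked these genes, and without them C5orf34, Zfp131 and Gm7120 still passed, with r of -0.88, -0.85 and -0.69. No diet difference in any of them passed (limma adjusted p of 0.644, 0.774 and 0.461).

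C5orf34 met the criterion for clusters that Nnt did not meet. Its strain means lay between 7.725 and 8.172 in 19 strains, D2 among them, and between 8.778 and 9.163 in 18 strains, B6 among them, with none in between. The BIC fell by 44.15 for the strain means, by 47.83 on CD and by 19.59 on HFD, with Ashman's D of 8.17, 7.47 and 5.6. Without BXD63 the strain means split 19 to 17 (BIC lower by 43.9). All 37 strains kept their side on both diets. Zfp131 split likewise, with 21 strains between 8.264 and 8.918 and 16 between 9.201 and 9.560 (BIC lower by 25.3, Ashman's D 6.14), although on CD alone its BIC fell by only 0.51. Without BXD63 it split 21 to 15 (BIC lower by 23.17). The split was shared: 16 strains were high for both genes and 19 low for both, and BXD65 and BXD97 were high for C5orf34 alone.

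C5orf34 was picked as the probeset with the lowest r with Nnt over these same 37 strains, so the spread of Nnt over its clusters is a description of that choice and no separate evidence. Among the 18 strains high in C5orf34, Nnt had a lowest strain mean of 9.650 (BXD56), a median of 10.093 and a highest of 10.790 (BXD66). Among the 19 strains low in C5orf34 it had a lowest of 10.734 (BXD81), a median of 11.02 and a highest of 11.504 (BXD44). The ranges met only where BXD66, at 10.790, passed BXD81 at 10.734 and BXD64 at 10.758. Within the clusters, r between Nnt and C5orf34 was -0.09 in the 18 high strains and -0.29 in the 19 low ones. Each cluster holds only a narrow part of the C5orf34 range, which by itself lowers the size of r, so these values are not set against the r of -0.88 over all. For Zfp131 it was -0.24 in the 16 high strains and -0.44 in the 21 low ones. The 5 strains measured on CD alone took no part in this fit. Of these, BXD101, BXD60 and BXD92a had C5orf34 scores of 9.006, 8.947 and 9.090, with Nnt at 9.852, 10.358 and 9.886. The other pair, BXD50 and BXD95, had C5orf34 scores of 7.893 and 7.875, with Nnt at 11.491 and 10.839. These 5 are CD scores, whereas the bounds of 10.734 and 10.790 are means of both diets. On CD alone both clusters shared the stretch from 10.497 (BXD81) to 10.677 (BXD97). The first 3 Nnt scores lie below either stretch and the other pair above it. Their Zfp131 scores were 9.297, 9.385 and 8.695 in the first 3 and 8.134 and 8.821 in the pair, so BXD92a was high for C5orf34 alone.

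**Figure D4:**
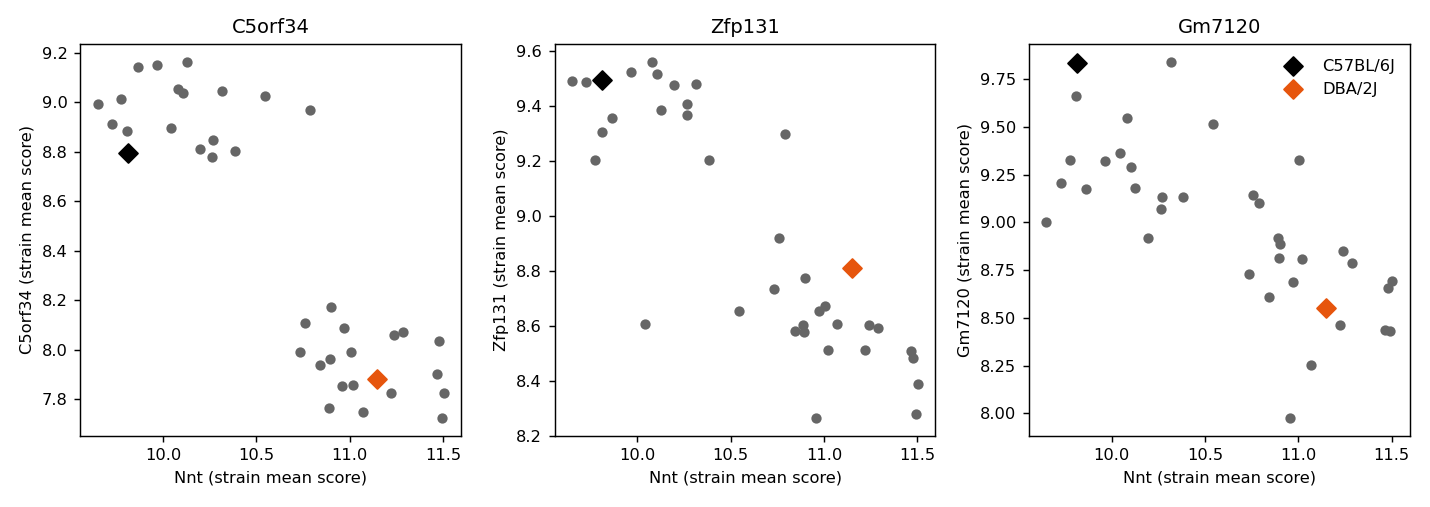
Strain mean score of C5orf34, Zfp131 and Gm7120 (vertical axes) against that of Nnt (horizontal), 37 strains each, with B6 as a black and D2 as an orange diamond. C5orf34 leaves an empty band between 8.172 and 8.778, Zfp131 between 8.918 and 9.201, and Gm7120 runs without a break wider than 0.276.

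A second probeset of C5orf34, 10412414, did not follow Nnt. It had a mean score of 7.19 and r = 0.08 with Nnt, and it differed by 0.07 between the parents (limma adjusted p = 0.995). The relation of Nnt with C5orf34 thus rests on probeset 10407370, as that of Nnt itself rests on 10412394. For C5orf34, Zfp131 and Gm7120, as for Nnt, sequence variants under probes and a different transcript level cannot be told apart here.

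The other 4 probesets past the threshold lie away from Nnt and were less secure. Pdia6, a disulphide isomerase of the endoplasmic reticulum, had r = -0.67 and a slope of -0.15 (SE 0.03, limma adjusted p = 0.0426). Tead4, a transcription factor of the Hippo pathway, had r = -0.66 and a slope of -0.21 (SE 0.04, limma adjusted p = 0.0426). Ceacam2, a cell adhesion protein, had r = 0.66 and a slope of 0.24 (SE 0.05, limma adjusted p = 0.0407). Probeset 10340176 of Ppm1a, a protein phosphatase, had r = 0.67 and a slope of 0.19 (SE 0.04, limma adjusted p = 0.0407). Its other probesets had r of -0.18 and -0.30. None of the 4 passed with the arrays of 1 diet alone, and none passed when values of one diet were set against Nnt on the other. None differed between the parents past the test. Pdia6 was higher on HFD by 0.12 (limma adjusted p = 0.00171).

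Below these, likeness to Nnt fell off gradually. With 1 probeset per gene, the highest r after Ceacam2 belonged to Sh3gl2, an endophilin of synaptic vesicles, at 0.63, Ssxb3 at 0.62, Siva1, an apoptosis factor, at 0.62, 4930435E12Rik at 0.61 and Xpo4, a nuclear exporter, at 0.60. Btla, a receptor of lymphocytes, followed at 0.59, then Shroom1 at 0.59, 1700001G17Rik at 0.58 and Myot, a protein of the muscle Z-disc, at 0.57. None of these 9 passed the test, with limma adjusted p from 0.0944 to 0.203. Over all probesets 291, or 0.818%, had an r of at least 0.5 in size. Cross-diet r was near 0 for Ssxb3, 4930435E12Rik and 1700001G17Rik, at -0.13, -0.06 and -0.00.

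The flat Nnt probeset had other company. In the same fit, 10960 of 35554 probesets followed 10407356, beside the 7 that followed 10412394. Its strain means had a correlation of 0.821 in size with the first principal component of all probesets, which held 11.9% of the variance between strains, whereas those of 10412394 had 0.026. The flat probeset thus varied along an axis that many probesets shared, and what sets that axis was not tested.

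Genes related to the task of NNT were described by 5 lists, 46 genes in all. The lists held other NADPH sources, enzymes that spend NADPH on peroxides, further antioxidant enzymes and complex I, which draws on the same NADH. None of the 46 followed Nnt across strains past the test (limma, smallest adjusted p = 0.178), and 7 did at an unadjusted p under 0.05, beside 11.3% of all probesets. Their r had a median of -0.01 and ran from -0.57 to 0.43, and the median over all probesets was 0.01. The lowest was that of Txnrd2, the mitochondrial thioredoxin reductase. The highest were Ndufs8 of complex I at 0.43 and Gsr, which regenerates glutathione with NADPH, at 0.41. Gsr was also the 1 member of the 46 to differ between the parents, in a contrast that called 1.26% of all probesets, with scores of 9.868 on CD and 9.807 on HFD in B6 and of 10.436 and 10.393 in D2. The B6 minus D2 difference was -0.58 (SE 0.13, limma adjusted p = 0.0102).

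Several of these genes changed with diet, but with both directions counted their share was smaller than that of all probesets. Of the 46, 11 were higher and 2 lower on HFD, beside 18.9% and 19.3% of all probesets. Their median difference was 0.03, against 0.00 over all probesets. Among 9 mitochondrial NADPH sources, 1 passed: Mthfd2, of the mitochondrial folate pathway, had a mean of 8.23 ± 0.63 on CD and 7.78 ± 0.17 on HFD (SD) and fell by 0.44 (limma adjusted p = 0.0005). Idh2, the mitochondrial isocitrate dehydrogenase and a main NADPH source beside NNT, differed by -0.02 and did not pass. Among 7 cytosolic sources 3 passed. G6pdx, the entry enzyme of the pentose phosphate pathway, rose by 0.38 (SE 0.06, 33 of 37 strains, limma adjusted p = 3.46e-07), and Pgd, which follows it in that pathway, by 0.10. Aldh1l1, of cytosolic folate metabolism, fell by 0.21 (limma adjusted p = 2.17e-06).

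Of 8 genes that pass NADPH on to peroxides, 4 rose. These were Txnrd2 by 0.14 (SE 0.02, 32 of 37 strains, limma adjusted p = 9.09e-07), the peroxiredoxin Prdx5 by 0.10, the glutaredoxin Glrx2 by 0.10 and the mitochondrial thioredoxin Txn2 by 0.07. Among 13 other antioxidant enzymes 2 rose, catalase (Cat) by 0.26 (SE 0.04, 33 of 37 strains, limma adjusted p = 1.69e-08) and the mitochondrial superoxide dismutase Sod2 by 0.08. Of 9 complex I subunits, Ndufs8 rose by 0.12, Ndufa10 by 0.10 and Ndufv1 by 0.09. With strain as a block 21 of the 46 passed in place of 13, 6 of them among the other antioxidant enzymes and 5 in complex I, beside 40.6% of all probesets under the block. Markers of cell types moved with diet as well: of 46, 16 were higher and 2 lower on HFD, beside the same 18.9% and 19.3%. Higher were 5 of 8 adipocyte, 4 of 6 macrophage, 3 of 5 endothelial and 2 of 5 Schwann cell genes, 1 of 6 red blood cell and 1 of 9 skeletal muscle genes, and 0 of 7 slow fibre genes. Lower were 1 adipocyte and 1 Schwann cell gene. The adipocyte average ran from 9.57 to 11.04 on CD and from 9.64 to 11.51 on HFD. The macrophage average ran from 8.39 to 9.2 and from 8.51 to 9.56, and the endothelial average from 9.6 to 10.45 and from 9.99 to 10.59. Their part in these diet differences was not tested. None of the 46 markers followed Nnt past the test (limma, smallest adjusted p = 0.259). At an unadjusted limma p under 0.05 there were 5, beside 11.3% of all probesets. Some lists lay to one side: r with Nnt was positive for all 7 slow fibre genes (0.23 to 0.32) and all 5 Schwann cell genes (0.02 to 0.22), and negative for all 6 macrophage genes (-0.43 to -0.14). Genes of a list share their arrays, and the part of these markers in the strain pattern of Nnt was not tested.

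**Figure D5:**
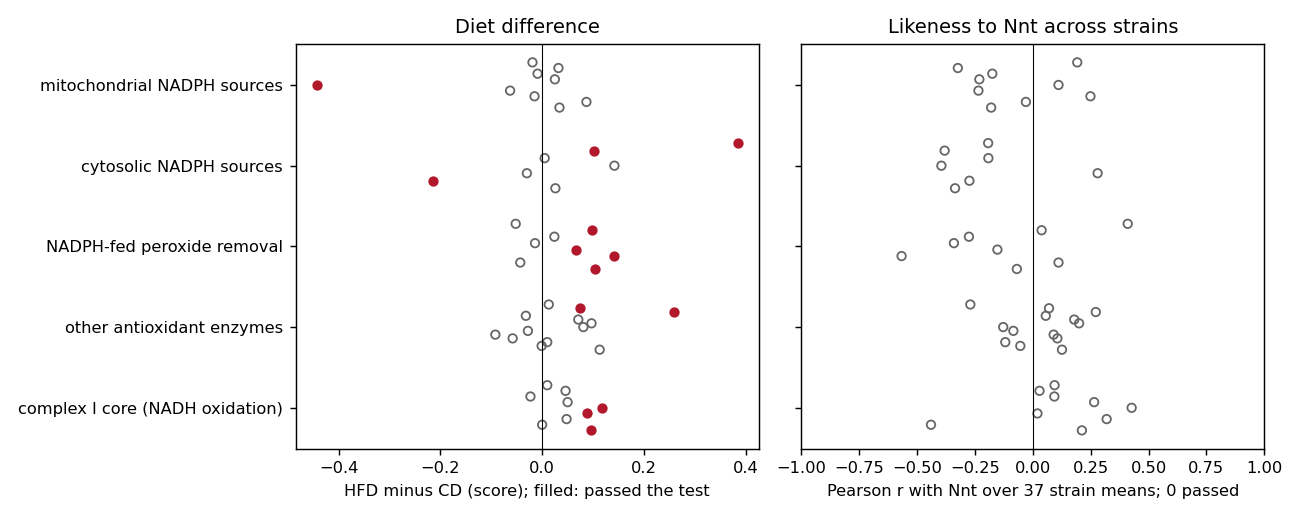
Diet difference in score units (left) and Pearson r with Nnt over 37 strain means (right) for each gene of the 5 lists, 1 point per gene, filled where the limma test passed. On the left 13 points are filled, 2 of them below 0, and on the right none is.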

How the data were processed

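Total RNA of quadriceps was hybridised to Affymetrix Mouse Gene 1.0 ST arrays, 79 in all. The authors deposited 1 score per probeset and array, scaled to an array mean of 8.0 and SD of 2.0. Per the labels' processing notes, Affymetrix Expression Console was used. Its version, the log base, the summarisation and the genome build are not given in the sources used here. Each score summarises several probes, which hides differences between exons. Linear models planned for log values were applied to the scores unchanged. The number of arrays sets the precision.

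Groups (CD, HFD), strains and batches came from the titles, and the CD column named BXD92 was taken as BXD92a. All value columns were used. Replicate arrays of a strain on 1 diet do not exist. In the diet model with batch and in the follower model, p-values therefore measure the spread between strains, each a pool. In the parental model, and with strain as a block, they rest on the spread left between the CD and HFD arrays of a strain. Pairing came from the strain name: deviations from the diet means over all probesets correlated between the arrays of a strain with a median r of 0.2 (-0.147 to 0.39, over 0.1 in 33 of 37 strains), against -0.007 for other pairings. A paired model was therefore kept as an alternative.

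Models were fitted with limma 3.58.1 (lmFit, eBayes, R 4.3.3) over all 35556 probesets, with Benjamini-Hochberg adjustment and calls at an adjusted p below 0.05. The diet model held diet and batch, the parental model a term per strain plus diet and batch, which assumes that the parents vary like other strains, and the model of followers the strain mean of Nnt and the number of batch 2 arrays. Followers are described by Pearson's r over strains, which share arrays and carry no p of their own. Mixtures came from scikit-learn 1.9.0 and permutation tests from numpy 2.4.6, under Python 3.11.15 with scipy 1.17.1. The models were tested on simulated data. Gene names are those of the table: 18783 symbols were current in a RefSeq table of GRCm38.p6, 2421 were synonyms and 1131 matched neither. That table served for names, strand and order alone.

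The genes named were Nnt, the 10 highest and 5 lowest in r with 1 probeset per gene (the highest mean), up to 10 measured neighbours on each side, and in each list up to 4 called members by size. Idh2, Gsr, Ppm1a and the second C5orf34 probeset, the clusters of the followers and the markers' averages, on the parental arrays too, were added once their values were known. The gene, the lists and the tests were chosen with earlier results of these data known. The alternatives with a block in subsets of strains, and both uses of probeset 10407356 in the parental and follower models and the clusters of strain means without BXD63, were chosen after seeing the data. No sequence of Nnt is printed.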

Additional observations from a re-analysis of the deposited data

How the results depend on the processing

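The diet difference in Nnt kept its sign and did not pass under any of 18 alternatives (0.053 to 0.252, adjusted p 0.131 to 0.797). With strain as replicate block it was 0.099 (adjusted p = 0.157), and the parental, cluster, agreement and follower results were not run with the block. The methods' t-test gave Nnt an unadjusted p of 0.386. At the methods' threshold it called 16450 of 35556 probesets, and 13650 after Benjamini-Hochberg adjustment. The parental difference of -1.335 lost its call with the 4 parental arrays alone (-1.335, adjusted p = 0.359) and on probeset 10407356 (-0.021, adjusted p = 1.0). When each parental array was left out in turn it ran from -1.857 to -0.813, and the call was lost only without the C57BL/6J CD array. The other 10 alternatives kept it. The number of strains below the dividing line on CD, 1 by the widest gap, was 19 by the midpoint of the parents, 21 by mixture component and 2 after quantile normalization, and it was 17 for strain means. The cause was not tested. The agreement of diets passed in 8 of 9 alternatives, the exception being the 8 strains with arrays in different batches (r = 0.562), where fewer strains were tested. The count of 7 followers fell to 4 with CD arrays alone, 3 with HFD arrays alone, 3 for HFD values against Nnt on CD, 2 for CD values against Nnt on HFD, 4 with ranks of Nnt and 4 without the parents, and lay between 6 and 9 in the other 6 alternatives. The cause of these changes in count was not tested either. C5orf34 and Zfp131 were among the followers in each. Detection above background was not analysed here, so how far dim probesets limit these counts is known only from the alternative without the dimmer ones (7 followers).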
